A study of Mus musculus with 6 samples.

Results

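The cyclic AMP response and phosphodiesterase genes described here are Crem, Sik1, Rgs2, Pde3b, Pde4b, Pde4d and Pde10a. They were chosen by name, with earlier results of these data known, and all 7 were found among the 18193 genes that have a probe set with exactly 1 gene symbol in the platform annotation. They are read by 24 of the 45037 probe sets tested, 4 for Crem, 2 for Sik1, 4 for Rgs2, 1 for Pde3b, 6 for Pde4b, 2 for Pde4d and 5 for Pde10a. A probe set is a group of short probes on the array that together read 1 transcript or a few.

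Cyclic AMP (cAMP) is made by adenylyl cyclases after hormones act on receptors coupled to the G protein Gs, and it switches on protein kinase A. That kinase phosphorylates the transcription factor CREB, which then drives a set of early response genes. Phosphodiesterases (PDEs) break cAMP down and end the signal, and several PDE genes are themselves switched on by cAMP. In fat cells cAMP starts the breakdown of stored fat, and insulin opposes it largely through PDE3B. IBMX blocks most phosphodiesterases, with the PDE8 and PDE9 enzymes as known exceptions, and is part of the standard mix that turns stromal cells into fat cells.

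The cultures were commercial mouse mesenchymal stem cells, stromal cells able to form fat, bone and cartilage. Irradiated cultures were exposed for 2 h to a broadband terahertz source, in the band below the infrared, that gave 35 fs pulses around 10 THz at 1 kHz, with 1 mW/cm2 on average. Control cultures stood beside them without radiation, and both were held at 26 to 27 °C. All cultures of both arms had been given rosiglitazone (1 µM), insulin (5 µg/ml), IBMX (100 µM) and dexamethasone (1 µM) again 48 h before exposure, so no array shows these cells without IBMX, and its part in the differences below cannot be measured. Each of 3 separate experiments gave 1 irradiated and 1 control array, so each arm has 3, and RNA was taken directly after exposure. The comparison asks which transcripts the exposure altered, judged against the neighbouring dish. The labels do not say whether the experiments used separate lots of cells.

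Levels are on the log2 scale, and a difference of 1 is a 2-fold change. Values of different probe sets are not comparable in level, because probes bind with different strength. Where a gene has several probe sets, the one with the highest mean level is called its main probe set. The median probe set has a level of 4.84, and 9 of the 24 probe sets lie below it, in the dim part of the range.

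The labelled cell type was checked against marker genes. Of 7 measured stromal markers 6 lay at or above the median level, and Thy1 did not, at 3.84. Of 6 measured fat cell markers 5 did, with Adipoq between 13.62 and 13.94, and leptin (Lep) did not, at 2.81. All 7 macrophage and leukocyte markers also did, from Itgam at 7.56 to Lyz2 at 14.21. Mean leukocyte marker levels were 11.04 to 11.11 in irradiated and 10.84 to 11.01 in control cultures, and mean fat cell marker levels were 10.96 to 11 in irradiated and 11.05 to 11.15 in control cultures. Among the 6 fat cell markers the mean irradiated minus control difference was -0.48 for Cidec and between -0.14 and 0.02 for the others. In such bulk RNA a change in the number of cells of a type and a change in RNA per cell cannot be told apart, and neither can the cell type that carries a member. The part of these markers in the results below was not tested. The 11 hybridization spike-in probe sets averaged 11.44 to 11.57 on the irradiated arrays, against 11.42, 11.43 and 11.93 on the control arrays, the highest being control culture 3.

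None of the 7 genes had a probe set called higher or lower with irradiation. In the limma fit, which sets each irradiated culture against its own control, 0 of the 24 probe sets passed an adjusted p of 0.05, and adjusted p ranged from 0.929 to 0.993. Over all probe sets the percent called was 0% higher and 0% lower, with 2237 at an unadjusted p under 0.05, and 1 of the 24 was among these. Differences of the 24 probe sets ranged from -0.25 to 0.17, and their 95% intervals stayed between -0.56 and 0.49. A 2-fold change of the measured level in either direction therefore lay outside the interval of each of them. For the 9 below the median level the deposited values give no measure of signal over background. A change in those transcripts therefore cannot be judged from these intervals. With 3 pairs, the smallest two-sided p of an exact sign-flip test is 0.25.

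**Figure D1:**
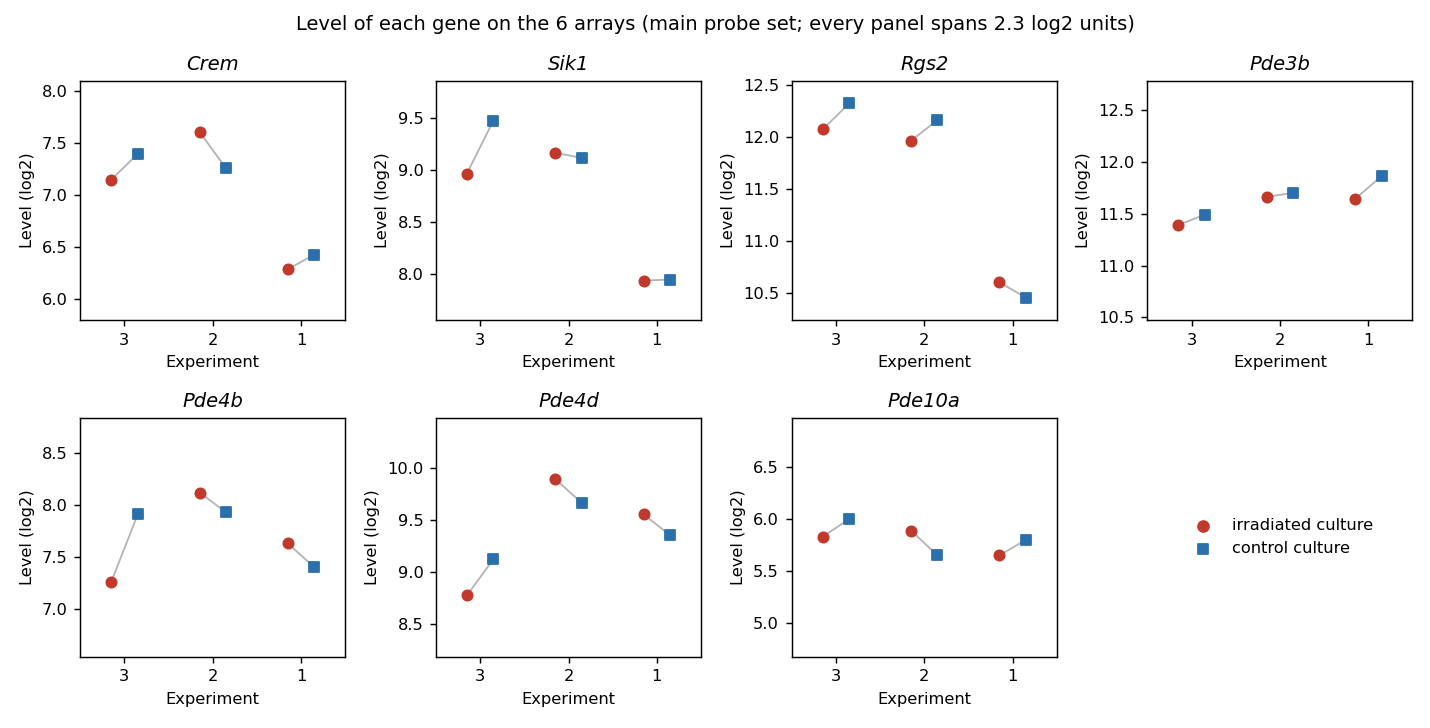
Level (log2) of the main probe set of each gene in the irradiated culture (red circle) and its control (blue square) of each experiment, shown from 3 to 1, with a line joining each pair and the same 2.3-unit span in every panel. Crem, Sik1 and Rgs2 lie lower in both cultures of experiment 1 than in the other 4, while the 2 arms overlap in every panel.

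Crem encodes activators and repressors that bind the same DNA element as CREB, among them the short repressor ICER, whose own promoter is switched on by cAMP. Which Crem transcripts each probe set reads is not given in the files used here. The main Crem probe set stood at 6.29, 7.61 and 7.15 in the irradiated cultures of experiments 1, 2 and 3, against 6.43, 7.26 and 7.40 in their controls. Both arms were low in experiment 1, and the arms overlapped. Crem averaged 7.02 ± 0.67 in irradiated and 7.03 ± 0.52 in control cultures (SD, n = 3 each), a difference of -0.01 ± 0.13 (SE, limma adjusted p = 0.993). A second Crem probe set stood at 6.0, 7.54 and 6.76, against 5.96, 7.04 and 7.44, so its pair differences of 0.04, 0.50 and -0.68 ran both ways. The remaining pair of Crem probe sets lay below the median level, with means of 3.69 and 2.87, and spanned at most 0.46 over the 6 arrays.

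Sik1 is a kinase gene that CREB switches on and whose product holds CREB's coactivators, the CRTC proteins, out of the nucleus. Its main probe set stood at 7.94, 9.17 and 8.97 in the irradiated cultures of experiments 1, 2 and 3, against 7.95, 9.12 and 9.48 in their controls. The pairs of experiments 1 and 2 differed by -0.01 and 0.05 and that of experiment 3 by -0.51. Sik1 averaged 8.69 ± 0.66 in irradiated and 8.85 ± 0.80 in control cultures (SD, n = 3 each), a difference of -0.16 ± 0.13 (SE, limma adjusted p = 0.936). Its other probe set lay below the median level, at a mean of 3.97.

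Rgs2 encodes a protein that shortens signals of G proteins, mainly Gq, and that also lowers the output of some adenylyl cyclases. Its main probe set stood at 10.60, 11.96 and 12.07 in the irradiated cultures of experiments 1, 2 and 3, against 10.45, 12.16 and 12.32 in their controls. The levels of experiment 1 were the lowest in both arms, and the arms overlapped. Rgs2 averaged 11.54 ± 0.82 in irradiated and 11.64 ± 1.04 in control cultures (SD, n = 3 each), a difference of -0.10 ± 0.10 (SE, limma adjusted p = 0.948). The other Rgs2 probe sets differed by -0.13, -0.13 and -0.18, and none of the 4 passed.

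Pde3b, the phosphodiesterase through which insulin restrains fat breakdown, has 1 probe set. It stood at 11.64, 11.66 and 11.39 in the irradiated cultures of experiments 1, 2 and 3, against 11.86, 11.70 and 11.49 in their controls. It was lower in 3 of 3 irradiated cultures than in their own controls, by 0.22, 0.04 and 0.10, though the arms overlapped. Pde3b averaged 11.56 ± 0.15 in irradiated and 11.68 ± 0.19 in control cultures (SD, n = 3 each), a difference of -0.12 ± 0.08 that did not pass (SE, limma adjusted p = 0.929). Of all genes 23.97% had one direction in the 3 pairs.

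Pde4b and Pde4d encode cAMP-specific phosphodiesterases, whose short forms are made when cAMP is high. The main Pde4b probe set stood at 7.63, 8.12 and 7.26 in the irradiated cultures of experiments 1, 2 and 3, against 7.40, 7.93 and 7.91 in their controls. Its irradiated culture was above the control in experiments 1 and 2, by 0.23 and 0.19, and below it in experiment 3, by -0.65. The main Pde4d probe set stood at 9.55, 9.89 and 8.77, against 9.35, 9.66 and 9.12. Pde4d therefore ran the same way as Pde4b in each pair, with differences of 0.20, 0.23 and -0.35. The mean difference was -0.08 ± 0.18 for Pde4b and 0.03 ± 0.13 for Pde4d (SE, n = 3 pairs, limma adjusted p = 0.976 and 0.990). The second Pde4b probe set had pair differences of -0.04, 0.01 and -0.38. Another, just above the median level at 4.87, had 0.16, -0.04 and 0.11.

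Pde10a encodes a phosphodiesterase that acts on both cAMP and cGMP and is best known from the striatum of the brain. Its main probe set stood at 5.65, 5.89 and 5.83 in the irradiated cultures of experiments 1, 2 and 3, against 5.80, 5.65 and 6.0 in their controls. The arms overlapped, with a difference of -0.03 ± 0.11 (SE, n = 3 pairs, limma adjusted p = 0.986). Another Pde10a probe set was at 4.93, 4.95 and 4.92 in irradiated cultures, against 5.18, 5.16 and 5.20 in controls. Its arms did not overlap, the case for 1 of the 24 probe sets and for 6.73% of all probe sets. The difference of -0.25 ± 0.07 (SE) had an unadjusted p of 0.016 and did not pass (limma adjusted p = 0.929). The other 4 Pde10a probe sets differed by -0.03 to 0.17, so the probe sets of this gene did not share a direction.

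**Figure D2:**
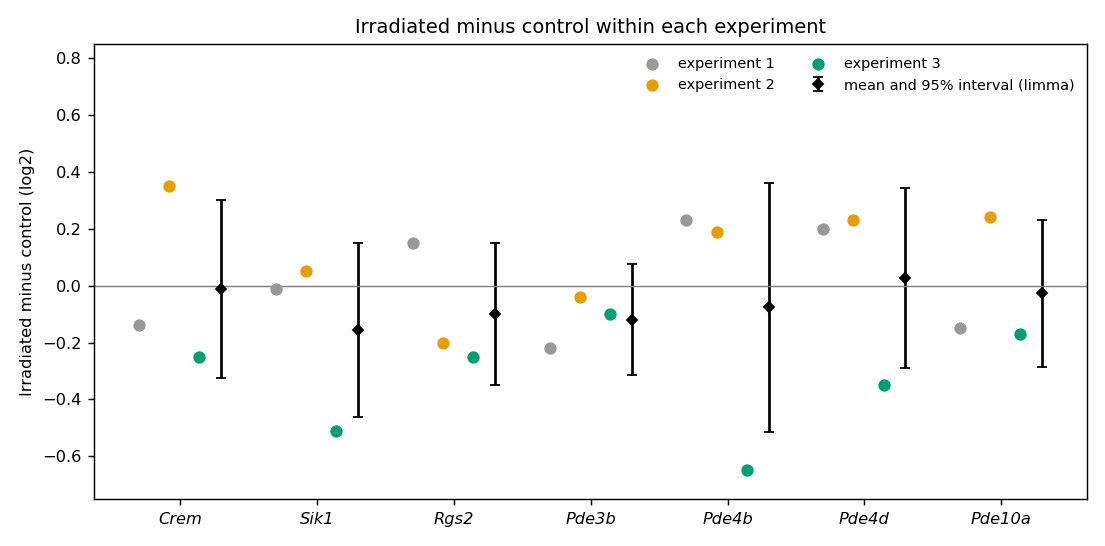
Irradiated minus control (log2) within each experiment for the main probe set of each gene (grey, experiment 1; orange, experiment 2; green, experiment 3), with limma's mean and 95% interval in black. Every interval includes 0, and all 7 green points lie below 0, between -0.65 and -0.10.

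In experiment 3 alone, the irradiated culture had the lower level for the main probe set of all 7 genes, with a median of -0.25 and a range from -0.65 to -0.10. Over all genes 48.5% were lower in that pair. In experiment 1 the irradiated culture was lower for 4 of the 7 and in experiment 2 for 2 of the 7 (46.9% and 48.7% of all genes). Of the 15 member probe sets at or above the median level, 14 were lower in the irradiated culture of experiment 3 (46.87% of all such probe sets), and 7 by at least 0.3. These 7 read Crem, Sik1, Rgs2, Pde4b and Pde4d. A fall of that size was seen in 6.78% of all probe sets at or above the median level in experiment 3, and a rise of that size in 7.59%, where the 15 gave 0. In experiment 1, 0 of the 15 differed by that much either way (3.6% of all such probe sets lower, 3.94% higher). In experiment 2, 3 of them were higher by that much and 0 lower (2.66% of all such probe sets higher, 3.32% lower), and these read Crem and Pde10a. Each of these comparisons sets 1 array against 1 array and has no test. The spike-in signal was also highest for control culture 3, and the 3' minus 5' value of its Actb control probe sets was 0.62 in irradiated and 0.72 in control culture 3, while the arms of experiments 1 and 2 differed by 0.01. The same value for Gapdh was -0.01 in irradiated and -0.03 in control culture 3. It was 0.23 and 0.19 in experiment 1, and -0.03 and -0.05 in experiment 2, with the irradiated culture first. The part of these array differences was not tested.

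Rgs2, Sik1 and Crem were higher in experiments 2 and 3 than in experiment 1, in both arms. The same limma fit compares the experiments, with 1 irradiated and 1 control culture in each. It asks whether 2 experiments differ by more than is left over once arm and experiment are accounted for, so it compares these 3 experiments and no treatment. Experiment 2 against experiment 1 gave 5 member probe sets higher and 0 lower, where 0.473% of all probe sets were called higher and 0.0466% lower. Experiment 3 against experiment 1 gave 6 higher and 0 lower, where 1.87% were called higher and 1.18% lower. Experiment 3 against experiment 2 gave 0 of 24, where 0.0355% were called higher and 0% lower. An unadjusted p under 0.05 was seen there for 5 of the 24, and for 4454 of all 45037 probe sets. All 4 arrays of experiments 2 and 3 lay above both of experiment 1 for 10 of the 24 probe sets (11% of all), and below them for 0 of the 24 (14.7% of all). All of these limma calls were lost when the experiment outside the comparison was left out, or control culture 3 alone. Either step leaves the fit with a single residual degree of freedom, and 0 of 45037 probe sets then passed.

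Rgs2 differed most among the 7 genes. Its main probe set averaged 12.20 in experiment 3 and 12.06 in experiment 2, against 10.53 in experiment 1. It was 3.18-fold higher in experiment 3 than in experiment 1 (1.67 ± 0.13, SE, limma adjusted p = 0.0031) and 2.90-fold higher in experiment 2 (1.54 ± 0.13, adjusted p = 0.010). All 4 Rgs2 probe sets passed in both comparisons. A dimmer one averaged 8.75 in experiment 3 and 8.31 in experiment 2, against 6.20 in experiment 1, a rise of 5.86-fold and 4.32-fold. The rise in experiment 3 therefore ranged from 2.63-fold to 5.86-fold between probe sets of the same gene. Without control culture 3 the main probe set was still 1.56 higher in experiment 3 (limma adjusted p = 0.21), and without experiment 2 it was 1.67 higher (adjusted p = 0.15). Leaving out experiment 3 gave an adjusted p of 0.18 for experiment 2 against experiment 1.

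Promoters of Rgs2 and Pde4b are shown because Rgs2 had the largest differences between experiments among the 7 genes, and the Pde4b window is the only other matched one with the motif searched. Both are 300 bases from RefSeq, build GRCm38.p6, from 250 bases before to 50 after a gene start, written 5′ to 3′ on the gene's strand. Capitals mark TGACG or its reverse complement CGTCA, the short core of the cAMP response element, searched on both strands. The Rgs2 window is chr1:144004100-144004399 on the minus strand, and the Pde4b window is chr4:102421305-102421604 on the plus strand.
Rgs2: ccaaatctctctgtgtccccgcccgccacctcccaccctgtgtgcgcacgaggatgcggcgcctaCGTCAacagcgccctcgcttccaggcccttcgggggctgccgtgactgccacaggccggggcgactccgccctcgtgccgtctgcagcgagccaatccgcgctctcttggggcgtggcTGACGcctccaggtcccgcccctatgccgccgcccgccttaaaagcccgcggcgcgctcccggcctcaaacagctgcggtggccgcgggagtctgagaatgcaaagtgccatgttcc
Pde4b: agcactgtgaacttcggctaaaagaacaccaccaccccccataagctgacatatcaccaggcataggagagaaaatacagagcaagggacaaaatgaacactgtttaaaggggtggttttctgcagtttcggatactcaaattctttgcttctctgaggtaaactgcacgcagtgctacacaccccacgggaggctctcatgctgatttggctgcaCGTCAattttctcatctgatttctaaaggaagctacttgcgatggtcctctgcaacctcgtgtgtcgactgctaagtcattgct

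The Rgs2 window holds 2 short cores, which begin 185 and 67 bases before the gene start, and this Pde4b window holds 1, which begins 34 bases before it. Promoter windows were matched for 4 of the 7 genes, 8 windows in all, and the other 6 windows, of Pde4b, Pde4d and Pde10a, hold none. Of 32851 mouse promoter windows of this length, 20.8% hold at least 1 short core and 5.01% at least 2. The full element TGACGTCA, which is its own reverse complement and contains the short core on each strand, is in 1.79% of windows and in none of these 8. A match describes the letters only and says nothing of binding.

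Sik1 averaged 9.23 in experiment 3 and 9.15 in experiment 2, against 7.95 in experiment 1. It was 2.43-fold higher in experiment 3 (1.28 ± 0.15, SE, limma adjusted p = 0.014) and 2.3-fold higher in experiment 2 (1.20 ± 0.15, adjusted p = 0.044). With the mean of both Sik1 probe sets the differences were 0.62 and 0.77 and did not pass (limma adjusted p = 0.054 and 0.073), because the dim probe set differed by -0.04 and 0.34. Without control culture 3, Sik1 was 1.02 higher in experiment 3 (limma adjusted p = 0.20), and adjusted p was 0.20 without experiment 2. Leaving out experiment 3 gave 0.14 for experiment 2 against experiment 1.

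Crem averaged 7.28 in experiment 3 and 7.44 in experiment 2, against 6.36 in experiment 1. The main probe set passed in experiment 3 (0.92 ± 0.16, SE, 1.89-fold, limma adjusted p = 0.041) and missed in experiment 2, where the difference was larger (1.08 ± 0.16, 2.11-fold, adjusted p = 0.069). Its unadjusted limma p was smaller in experiment 2, at 4.4e-04, against 0.0010 in experiment 3. The adjustment is made over all probe sets, of which 234 were called in experiment 2 and 1374 in experiment 3. The difference in experiment 2 passed under 4 other settings, a level filter (limma adjusted p = 0.044), an intensity trend (0.0065), array weights (0.041) and experiment as the only term (0.026). It missed with quantile normalization (limma adjusted p = 0.064), median centring (0.059), a robust prior (0.076), the mean of probe sets (0.17) and without experiment 3 (0.33). The second Crem probe set missed in both experiments 3 and 2, with 1.12 ± 0.26 and 1.31 ± 0.26 (limma adjusted p = 0.085 and 0.15). Without control culture 3 the main probe set was 0.74 higher in experiment 3 (limma adjusted p = 0.38), and with array weights adjusted p was 0.055. With the mean of the 4 Crem probe sets it was 0.59 higher and did not pass (limma adjusted p = 0.069). Without experiment 2 the main probe set was still 0.92 higher in experiment 3, with a limma adjusted p of 0.16.

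**Figure D3:**
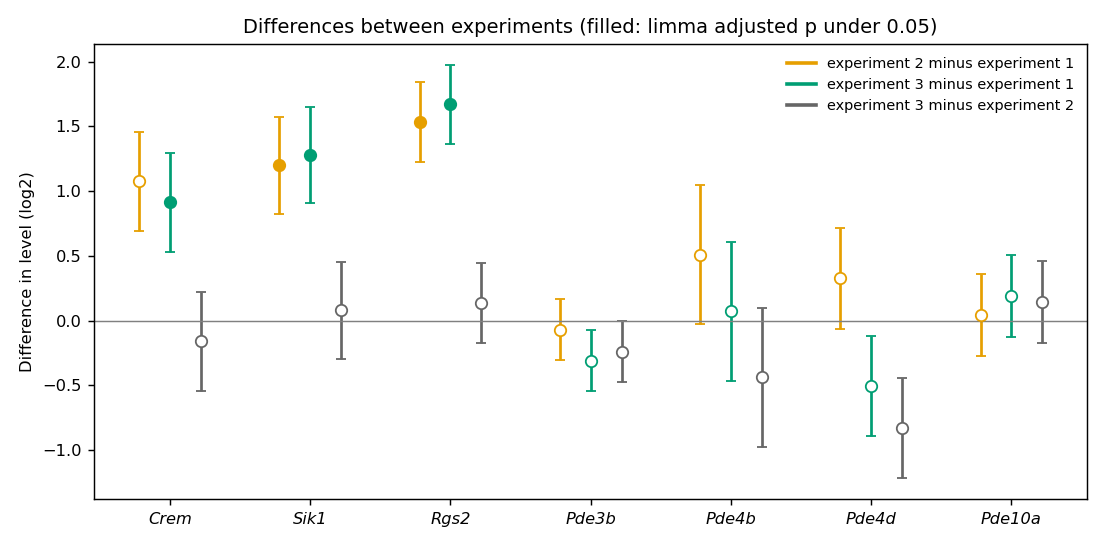
Difference in level (log2) between experiments for the main probe set of each gene, with 95% intervals from limma. Orange is experiment 2 minus 1, green is experiment 3 minus 1, grey is experiment 3 minus 2, and filled points passed an adjusted p of 0.05. Rgs2 and Sik1 are filled in both comparisons with experiment 1, Crem in 1 of them, and the phosphodiesterase genes in none.

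No phosphodiesterase among the 7 genes passed between experiments. Pde4d averaged 8.95 in experiment 3, against 9.78 in experiment 2 and 9.45 in experiment 1. Its difference of -0.83 ± 0.16 between experiments 3 and 2 missed (SE, limma adjusted p = 0.25), and so did that of -0.51 ± 0.16 between experiments 3 and 1 (adjusted p = 0.17). Without control culture 3 these Pde4d differences were -1.11 and -0.79, and neither passed (limma adjusted p = 0.73 and 0.24). With an intensity trend in the variance both passed (limma adjusted p = 0.032 and 0.0497). Pde4b averaged 7.59 in experiment 3 and 8.03 in experiment 2, against 7.52 in experiment 1, and Pde3b averaged 11.44 and 11.68, against 11.75. The Pde4b difference between experiments 3 and 2 was -0.44 ± 0.22, and -0.87 without control culture 3 (SE, limma adjusted p = 0.57 and 0.73). Between experiments 2 and 1 the main Pde4b probe set differed by 0.51 ± 0.22 and the second by 0.595 ± 0.12. Neither passed (SE, limma adjusted p = 0.52 and 0.18). The Pde3b difference of -0.31 ± 0.10 between experiments 3 and 1 missed (SE, limma adjusted p = 0.17) and passed with the intensity trend (adjusted p = 0.015). Pde10a spanned 0.35 over the 6 arrays, the smallest span of the 7 main probe sets.

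**Figure D4:**
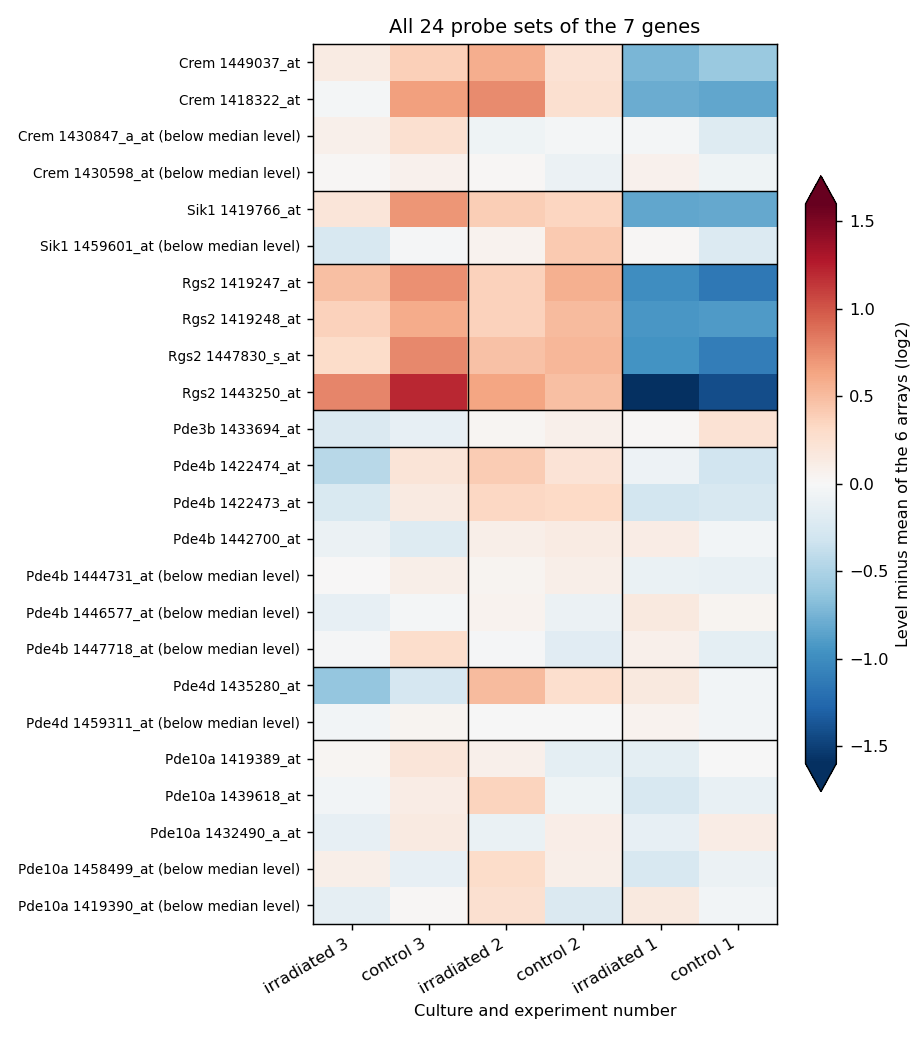
Level of all 24 probe sets (rows, grouped by gene) on the 6 arrays (columns), as the difference in log2 units from that probe set's mean over the arrays, with red above and blue below. The 4 Rgs2 rows, the main Sik1 row and the 2 upper Crem rows are blue in both columns of experiment 1, and the main Pde4d row is lowest in irradiated culture 3. Values past the ends of the colour bar take its end colour.

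Experiment 1 also differed from the others in the Gapdh measure of RNA integrity. For Gapdh, the level of the 3' control probe set minus that of the 5' one was -0.01 and -0.03 in experiment 3 and -0.03 and -0.05 in experiment 2, against 0.23 and 0.19 in experiment 1, with the irradiated culture first. For Actb that value was 0.76 and 0.75 in experiment 1, 0.61 and 0.62 in experiment 2, and 0.62 and 0.72 in experiment 3. The part of these differences in the levels of Rgs2, Sik1 and Crem was not tested.

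Other genes of the pathway were taken from 9 lists, each gene by its main probe set. Irradiation gave 0 calls in any list, as over all genes. Of the 17 measured CREB target genes 14 were lower and 3 higher in irradiated cultures, with a median of -0.12. Of all 18193 genes 8752 were lower and 9183 higher, with a median of 0.0033. In experiment 3 the median of the CREB target genes was -0.31 with 13 of 17 lower, where 48.5% of all genes were lower. Experiments 1 and 2 had medians of 0.05 and 0.04 with 7 of 17 lower in each, where 46.9% and 48.7% of all genes were lower. Fosb, an AP-1 transcription factor gene, differed by -0.21 ± 0.09 and Nr4a2, an orphan nuclear receptor gene, by -0.20 ± 0.14 (SE, limma adjusted p = 0.929 and 0.931). Pde2a, a phosphodiesterase that cGMP stimulates, was higher in 3 of 3 irradiated cultures, at 9.51, 9.34 and 9.47, against 9.35, 9.17 and 9.03 in their controls. Its difference of 0.26 ± 0.09 had an unadjusted p of 0.029 (SE, limma adjusted p = 0.929), and the cAMP-degrading Pde7a was at -0.14 ± 0.09. Rgs5, a vessel-wall RGS gene, differed by -0.29 ± 0.11 at a level below the median probe set, and Rgs10 by 0.15 ± 0.08 (SE, limma adjusted p = 0.929 for both).

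The CREB target genes, a list also chosen with earlier results of these data known, had the most calls between experiments of the 9 lists. In experiment 3, 12 of 17 passed as higher than in experiment 1 and 0 as lower, and in experiment 2, 10 of 17 and 0. Over all genes the shares were 2.07% higher and 1.07% lower in experiment 3, and 0.616% higher and 0.033% lower in experiment 2. The list median was 2.18 in experiment 3 and 1.78 in experiment 2, where the medians of all genes were -0.02 and -0.02. Fosb averaged 9.94 in experiment 3, against 4.24 in experiment 1 (5.70 ± 0.11, SE, limma adjusted p = 1.1e-04). Ptgs2, the inducible prostaglandin synthase, averaged 12.06 in experiment 3, against 7.48 (4.59 ± 0.16, adjusted p = 2.9e-04). Fosb and Atf3, a stress-induced repressor gene named after its values were seen, were the 2 that also passed between experiments 3 and 2, by 1.37 and 1.84. Over all genes 0.044% were called higher there and 0% lower. Several of the CREB target genes answer to growth factor and stress signals as well as to cAMP, and the lists do not separate the signals. Without experiment 2, or without control culture 3, the count of 12 was 0, and without experiment 3, or control culture 3, the count of 10 was 0.

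Among genes that make or sense cAMP, 2 passed between experiments 3 and 1, where 2.07% of all genes were called higher and 1.07% lower. Of 8 measured receptor and G protein genes 1 passed, Ptger4, a Gs-coupled receptor for prostaglandin E2, which averaged 10.46 in experiment 3, against 9.41 in experiment 1 (1.05 ± 0.13, SE, limma adjusted p = 0.014). Pth1r was at -0.64 ± 0.13 (limma adjusted p = 0.059), and Gnai1 and Ptger4 had the smallest p for irradiation in this list, at -0.14 ± 0.10 and -0.13 ± 0.10. None of the 10 adenylyl cyclase genes passed, with Adcy7 at -0.37 ± 0.10 and Adcy6 at -0.19 ± 0.09 first by p. For irradiation, Adcy10 was at -0.22 ± 0.10 and Adcy8 at -0.17 ± 0.11, both below the median level. Of 15 genes of protein kinase A, its inhibitors and its anchors, Prkar2b passed, the regulatory subunit that prevails in fat cells. It averaged 10.53 in experiment 3, against 11.19 in experiment 1 (-0.66 ± 0.09, SE, limma adjusted p = 0.022), and Akap7 was at -0.37 ± 0.09. With irradiation Prkar2b was lower in 3 of 3 pairs, at -0.17 ± 0.08, and the kinase inhibitor gene Pkia at -0.15 ± 0.08 (limma adjusted p = 0.929 for both). The 3 measured EPAC and RAP genes gave 0 calls, with Rapgef3 at 0.09 ± 0.08 and Rap1a at 0.06 ± 0.08 for irradiation. These calls between experiments were lost without experiment 2 or without control culture 3, when 0 probe sets passed.

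Among the remaining lists, none of the 11 other phosphodiesterase genes that act on cAMP passed between experiments 3 and 1. In that comparison 2.07% of all genes were called higher and 1.07% lower. Pde7a was at -0.38 ± 0.11 and Pde1b at 0.31 ± 0.10 (SE, limma adjusted p = 0.13 and 0.19). Of 7 genes for cGMP-specific phosphodiesterases or their subunits Pde5a passed. It was at 7.56 in experiment 3, against 8.28 in experiment 1 (-0.72 ± 0.13, SE, limma adjusted p = 0.044), and Pde6a was at 0.48 ± 0.17. For irradiation Pde5a was at 0.16 ± 0.10 and Pde6h at -0.05 ± 0.07. Of 8 genes of the CREB family and its coactivators Sik2 passed, the SIK kinase gene that is abundant in fat cells, at 10.17 in experiment 3, against 10.73 in experiment 1 (-0.56 ± 0.10, adjusted p = 0.043). Sik1 and Sik2 thus passed in opposite directions, and Sik3 missed at -0.43 ± 0.10 (limma adjusted p = 0.095). Creb1 and Ep300 had the smallest p for irradiation in that list, at 0.11 ± 0.08 and 0.09 ± 0.08. Of 14 other RGS genes 3 passed as higher, Rgs1 (1.69 ± 0.12), Rgs16 (1.17 ± 0.12) and Rgs4, which was named after its values were seen (0.98 ± 0.12, limma adjusted p = 0.014). Between experiments 2 and 1 these 3 did not pass, with differences of 0.10, 0.30 and -0.22. Between experiments 3 and 2 Rgs1 also passed (1.59 ± 0.12, SE, limma adjusted p = 0.042), where 0.044% of all genes were called higher. Rgs16 and Rgs4 did not, at 0.88 ± 0.12 and 1.20 ± 0.12. The calls between experiments 3 and 1 in these lists were lost without experiment 2 or without control culture 3.

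**Figure D5:**
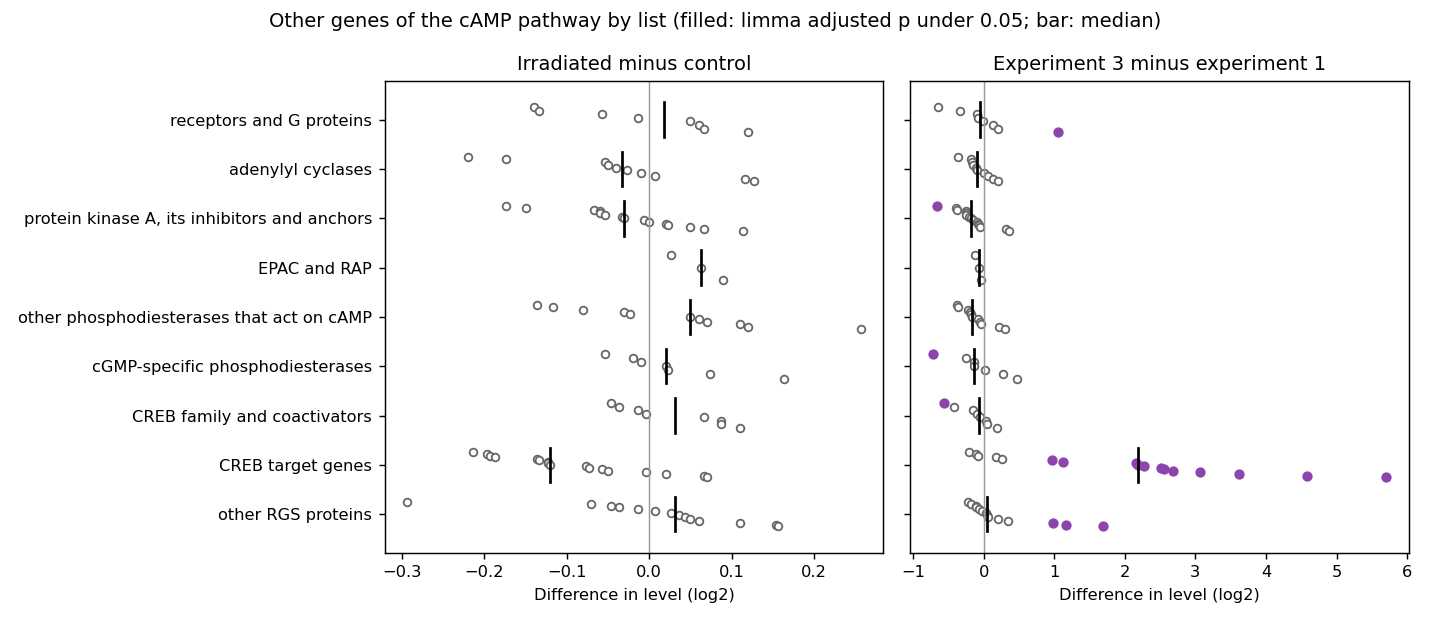
Difference in level (log2) of each measured gene of the 9 pathway lists, for irradiated minus control (left) and experiment 3 minus experiment 1 (right, on a wider axis), with a bar at each list's median and filled points for a limma adjusted p under 0.05. The left panel has no filled point, and in the right panel 12 of the filled points are CREB target genes.

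Genes with the most similar levels over the 6 arrays were sought for the members whose main probe set spanned at least 1 log2 unit, which were Crem, Sik1, Rgs2 and Pde4d. The search covered genes at or above the median level with the same span, and it is a description of 6 arrays that share 3 experiments. Sik1 ran with Nr4a3, an orphan nuclear receptor gene (Pearson's r = 0.997), the AP-1 gene Fosl1 (r = 0.997) and Srxn1, a sulfiredoxin gene (r = 0.996). Rgs2 ran with Arrdc3, an arrestin-domain gene (r = 0.997), the nuclear receptor gene Nr4a1 (r = 0.997) and the vessel growth factor gene Vegfa (r = 0.996). Crem ran with the centromere gene Cenpl (r = 0.989), D16Ertd472e (r = 0.985) and Osgin2 (r = 0.985). Pde4d ran with Has2, a hyaluronan synthase gene (r = 0.981), and less closely with Lrp8 (r = 0.897) and Taf15 (r = 0.887). Has2 stood at 9.21, 9.49 and 8.19 in the irradiated cultures of experiments 1, 2 and 3, against 9.10, 9.26 and 8.70 in their controls, so that like Pde4d it was lowest in irradiated culture 3.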

How the data were processed

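The authors deposited log2 expression levels. The tools that the submitters' processing notes name are RMA, affy and limma, without versions. The log base is taken as 2 because RMA gives that scale, and values have 2 decimals. RMA equalizes arrays, so changes are relative to other transcripts. Per the labels' protocols, 200 ng of total RNA was labelled from the poly(A) tail. Scanner files were not used here.

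After removal of 64 Affymetrix control probe sets, 45037 entered the test (R 4.3.3, limma 3.58.1: lmFit, eBayes, two-sided, Benjamini-Hochberg over all probe sets, threshold 0.05, no level filter), with arm and experiment as terms. The pairing comes from the series design. Deviations of paired arrays correlated with r = 0.63, 0.14 and 0.50, and those of irradiated culture 2 and control culture 3, which are no pair, with r = 0.15. Depth does not apply to arrays, and their number limits the precision.

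Genes were named from the platform annotation, which gives 34945 probe sets 1 symbol, 932 several and 9160 none. The members and lists were chosen with earlier results of these data known. From each list, the 2 genes with the smallest unadjusted p for irradiation and the 2 for experiment 3 minus 1 are named. Alternatives were no block, a random block, quantile normalization, median centring, a level filter, a robust prior, an intensity trend, array weights, the mean of probe sets, experiment as the only term and leaving out experiments.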

Additional observations from a re-analysis of the deposited data

How the results depend on the processing

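Irradiation gave 0 calls over all probe sets, the members and the CREB target genes under each of the 12 alternatives. The fit with no replicate block, which ignores the pairing, also gave 0. Signs of small uncalled differences turned. With array weights Crem was at 0.0296, Pde4b at 0.0047 and Pde10a at 0.001, and with the mean of probe sets Pde10a was at 0.004. Leaving out 1 experiment gave -0.195 to 0.105 for Crem, -0.26 to 0.02 for Sik1, -0.23 to 0.21 for Pde4b, -0.075 to 0.215 for Pde4d and -0.16 to 0.045 for Pde10a. Probe sets called between experiments 2 and 1 numbered 234, and 374 with a level filter, 670 with an intensity trend and 151 with the mean of probe sets. Between experiments 3 and 1 they numbered 1374, of which 841 were higher and 533 lower. The level filter gave 2513 (1207 higher, 1306 lower), the trend 3534 (1596 higher, 1938 lower) and the mean of probe sets 750. Between experiments 3 and 2 they numbered 16, and 64, 275 and 33 under these settings and 52 with experiment as the only term. Each of these 3 counts was 0 when the experiment outside the comparison, or control replicate 3 alone, was left out, and so were the counts of members and CREB target genes. Array weights gave 350 calls over all probe sets between experiments 2 and 1 and 1138 between experiments 3 and 1. Experiment as the only term gave 320 and 1866. Member genes called between experiments 3 and 1 numbered 3, and 5 with the trend, 2 with array weights and 1 with the mean of probe sets. Between experiments 2 and 1 member genes called numbered 2, and 1 with the mean of probe sets. They numbered 3 there with the level filter, the trend, array weights or experiment as the only term. Between experiments 3 and 2, 1 member gene was called with the trend. Between experiments 3 and 2, the mean of probe sets put Sik1 at -0.1475 and Pde10a at -0.05. Without control replicate 3, a setting chosen after seeing the data, Sik1 was at -0.185 between these experiments, against 0.08, and Pde4b at -0.36 between experiments 3 and 1, against 0.07. The cause of these changes was not tested, except that leaving out arrays lowers the residual degrees of freedom. Few arrays limit the precision, and 9 of the 24 member probe sets lay below the median level, where the deposited values give no measure of signal over background.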
